A study of Caenorhabditis elegans with 6 samples.

Results

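The cytosolic ribosomal protein genes of *C. elegans* were followed on arrays of mid-aged worms with impaired mRNA decapping. The genes were chosen by WormBase gene number, from *rpl-1* to *rpl-43* for the large subunit and from *rps-0* to *rps-30* for the small subunit, and every identifier in these ranges with a row in the deposited values was used. This gave 73 genes, 42 of the large and 31 of the small subunit, out of 17397 genes in all, while 3 of the 76 identifiers, all in the large subunit range, had no row. The choice used the numbers alone and no expression value.

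RNA was taken from whole adult worms on day 9 of adulthood, in 3 populations of wild type (wt; strain N2) and 3 populations of the *dcap-1(tm3163)* strain, hereafter *dcap-1(rf)*, which carries a reduction-of-function allele of the gene for the decapping cofactor DCAP-1. Both strains were grown on UV-killed OP50 bacteria with 10 µg/mL FUDR, a drug that keeps progeny from developing, so the controls had received it too. Each population, a pool of worms, was hybridized on 1 Affymetrix *C. elegans* Genome Array, and the deposited values are log2 expression values with 1 value per gene and array. The allele reduces and does not abolish decapping activity, so the comparison is with partial loss.

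A ribosome is built of a large and a small subunit, each made of ribosomal RNA and of proteins that are present in 1 copy per particle, with few exceptions. The large subunit joins amino acids and holds the exit tunnel of the new chain, and the small subunit reads the mRNA. The mRNAs of ribosomal proteins are among the most abundant of growing cells, and their genes are usually expressed together. Decapping removes the cap from the start of an mRNA and opens it to decay from that end.

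The arrays were alike over all genes, with Pearson's r between 0.990 and 0.997 for pairs of arrays and median log2 values between 2.18 and 2.24. Genes are not independent replicates, and these r values describe the arrays. The log2 level of *dcap-1* itself was 5.33 ± 0.09 in the wt arrays and 4.56 ± 0.08 in the mutant arrays (SD, n = 3 for both), with a limma adjusted p (Benjamini-Hochberg) of 0.00469. Of the tissue markers fixed for whole worms, the intestinal *elt-2*, the muscle genes *unc-54* and *myo-3* and the neuronal *snb-1* had names here. Their log2 means ran from 3.05 to 7.31 in wt, and none of them was called. Their log2 fold changes were 0.20, 0.29, 0.21 and 0.16 in that order. The names came from a list that, outside the differentially expressed genes, held only the larger positive log2 fold changes. Uncalled markers that were lower, or only slightly higher, could not appear. These values thus say nothing about the direction or the size of change of the markers as a whole. No marker of the hypodermis, germ line or oocytes had a name. The sperm markers *msp-50* and *msp-76* had log2 means of 3.40 ± 0.13 and 2.88 ± 0.32 in wt and of 6.88 ± 0.24 and 6.41 ± 0.19 in *dcap-1(rf)* (SD, n = 3), both were called, and the part of this difference in the results on ribosomal protein genes was not tested. In RNA of whole worms, fewer cells of a type and less RNA per cell cannot be told apart. RMA, the method that made the values, gives all arrays the same distribution of probe signals, so worms with more or less mRNA in all would not have shown it.

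Only 12 of the 73 genes have a name in the sources used here: the 4 at the ends of the number ranges and 8 that the supplementary tables of the study name. The part of those tables that was available lists, outside the differentially expressed genes, only genes with the larger positive log2 fold changes. These 8 names thus went to the genes that were highest in *dcap-1(rf)* relative to wt. The other 61 genes are described by their subunit and their values. The 4 at the ends of the ranges were named by their number, not by a value.

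Ribosomal protein mRNAs were at the top of the expression scale. Of the 100 genes with the highest average over the 6 arrays, 62 were ribosomal protein genes, and so were 11 of the 20 highest. The median rank of the 73 genes was 53 of 17397, the best rank was 4 and the lowest 1022. Their averages had a median of 10.27 on the log2 scale, 54 of them were at 10 or above, and 4 were below 9. The large subunit genes had a median average of 10.22 and a range from 6.80 to 10.93, and the small subunit genes a median of 10.29 and a range from 8.67 to 10.84. The highest value of any gene on an array was between 11.07 and 11.25, so most of the family lay close to the upper end of the scale. Levels of different genes depend on their probes, and these ranks describe signal, not numbers of mRNA molecules.

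The values of the family were also tight between replicates. The median SD of the 73 genes was 0.043 between wt arrays and 0.065 between *dcap-1(rf)* arrays, against 0.10 and 0.11 for all genes tested. For the 38 other genes among the 100 highest averages it was 0.057 and 0.073. Other genes at this level were thus closer to the family than to all genes tested. The largest SD among the wt arrays was 0.12, that of a small subunit gene. The largest SD in the mutant was 0.22, that of a large subunit gene with values of 7.96, 8.36 and 8.31 on the mutant arrays and of 8.09, 8.17 and 8.07 in wt. On 10 of the 73 genes, at least 2 arrays shared the same value to the last decimal deposited.

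In *dcap-1(rf)* the family as a whole had slightly higher values than in wt. The median log2 fold change of the 73 genes was 0.078, which is 5.53% on a linear scale, with quartiles of 0.042 and 0.11, while the median of all 13047 genes tested was -0.019. The log2 fold change was above 0 in 67 of the 73 genes (91.8%), where 44.6% of all genes tested were above 0. None of the 73 genes was called differentially expressed at an adjusted p under 0.05 in limma, where 1.62% of all genes were called, and 4 of them had an unadjusted p under 0.05, where 13.8% of all genes did. With a prior variance that followed the level and was fitted robustly, 1 member (*rpl-38*) was called, or 1.37% of the family against 2.05% of all genes, and 14 members (19.2%) had an unadjusted p under 0.05 against 14.1% of all genes. The median standard error of a log2 fold change in the family was 0.072 and the median half-width of its 95% interval 0.17, so differences as small as the median of the family were not detectable for a single gene with 3 arrays per group.

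**Figure D1:**
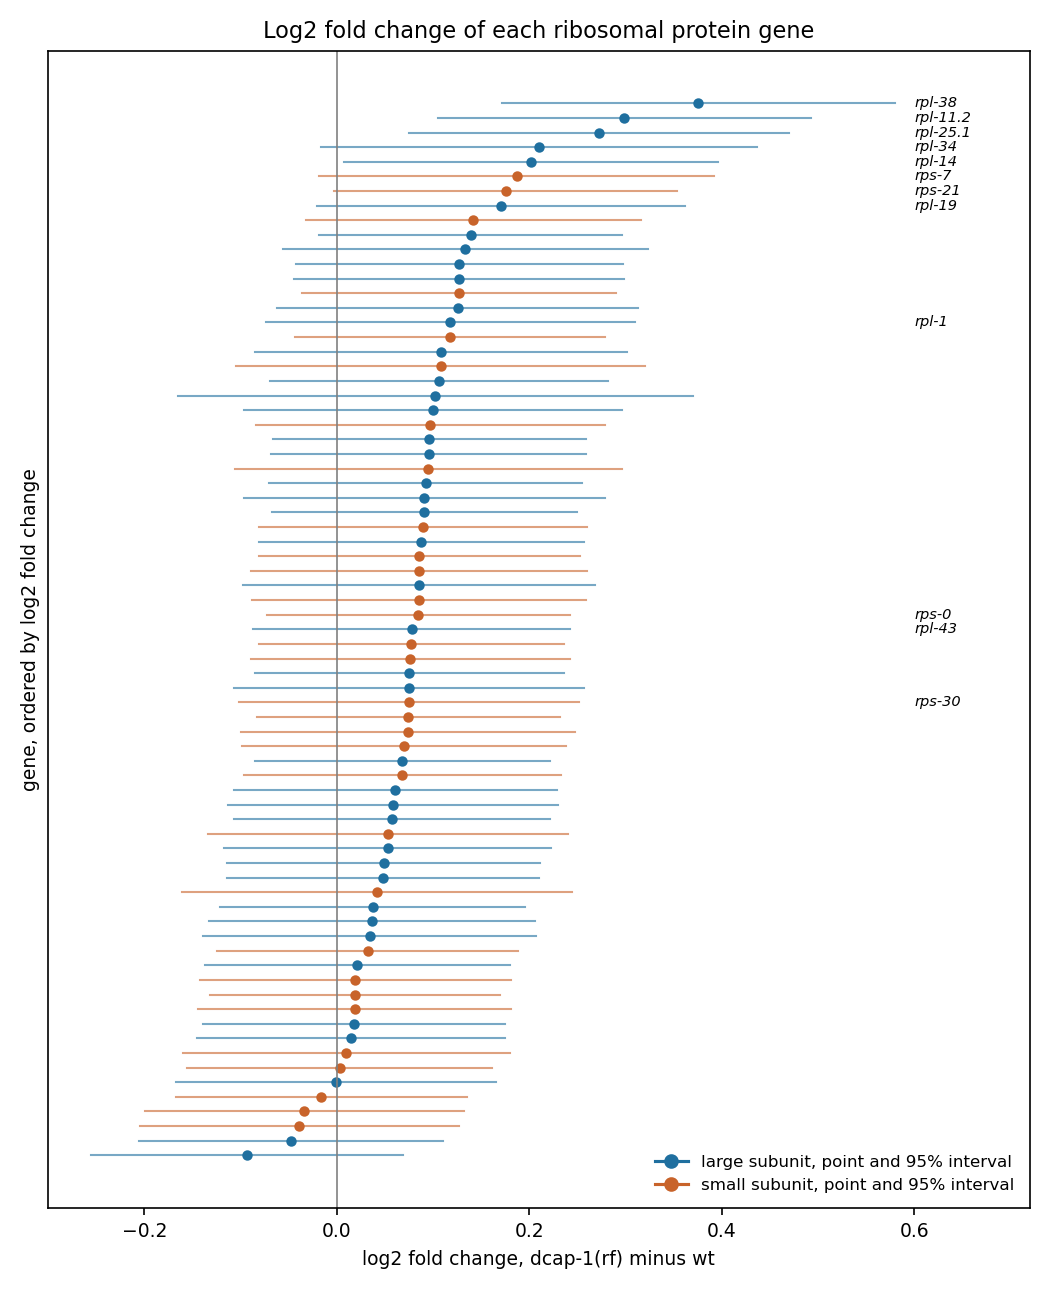
Log2 fold change (*dcap-1(rf)* minus wt, horizontal axis) of the 73 ribosomal protein genes in order of size, with the point estimate and the 95% interval from limma; blue marks the large and orange the small subunit, and the 12 named genes are labelled. Points of 67 genes lie above 0, and the intervals of 4 genes lie wholly above 0.

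The size of the shift depended on how the arrays were scaled. When the deposited values were quantile-normalized again, which sets the upper end of the scale equal on all arrays, the median of the 73 genes was 0.030 and 52 of them were above 0. With each array centred on its median it was 0.089, and with cyclic loess normalization 0.067. The scalings moved the median of all genes tested from -0.019 to values between -0.023 and -0.0066.

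All 3 *dcap-1(rf)* arrays lay above all 3 wt arrays in 20 of the 73 genes (27.4%), 11 of the large and 9 of the small subunit, against 8.93% of all genes tested. They lay below all wt arrays in 1 gene (1.37%), against 9.67% of all genes tested. The first count depended on the scaling as well. With the arrays centred on their medians it was 12, where 9.83% of all genes were apart in this direction. It was 10 after quantile normalization, where 9.50% were, and 22 with cyclic loess normalization, where 11.3% were. These scalings were applied to this count after the data had been seen.

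The shift was carried by 2 of the 3 mutant arrays. Relative to the wt mean of each gene, the median over the 73 genes was 0.015, -0.0068 and -0.0090 on wt replicates 1, 2 and 3. It was 0.017 on *dcap-1(rf)* replicate 1, 0.11 on replicate 2 and 0.11 on replicate 3. Replicate 1 of the mutant thus lay within reach of the wt arrays and the other two lay clearly above them. The mean of the mutant arrays was 0.079 ± 0.054 (SD, n = 3) and that of the wt arrays -0.00025 ± 0.013 (SD, n = 3), so that the spread of the mutant was 0.054 against a difference of 0.079. The lowest of the 3 mutant values was that of replicate 1 in 63 of the 73 genes. The value of a mutant array was above the highest wt array in 23 genes on replicate 1, 55 on replicate 2 and 60 on replicate 3, or 31.5%, 75.3% and 82.2%. Over all genes tested the corresponding shares were 24.0%, 28.6% and 25.9%, so that replicate 1 did not stand apart over the whole array in this measure. *dcap-1* had similar values on the mutant arrays, 4.50, 4.52 and 4.65 on replicates 1, 2 and 3.

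**Figure D2:**
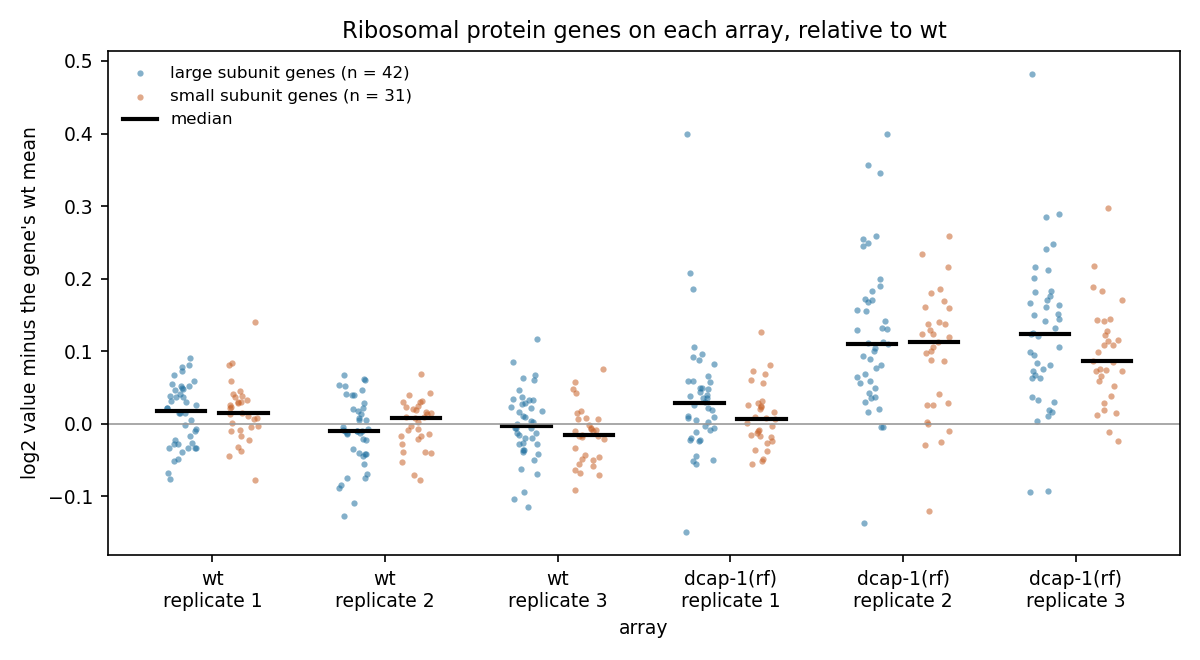
Each point is a ribosomal protein gene on 1 array, as its log2 value minus the mean of its 3 wt values (vertical axis), for the large (blue) and small (orange) subunit; black bars are medians. The medians of *dcap-1(rf)* replicates 2 and 3 lie between 0.087 and 0.12, and those of *dcap-1(rf)* replicate 1 and the wt arrays between -0.015 and 0.028.

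Without *dcap-1(rf)* replicate 1 the median log2 fold change of the 73 genes was 0.11, 68 genes were above 0, 9 (12.3%) had an unadjusted p under 0.05, against 13.3% of all genes tested, and none was called. In the same setting, 52 genes (71.2%) had both mutant arrays above all wt arrays, against 14.9% of all genes tested; this count was added after the data had been seen. Without wt replicate 1, 33 genes (45.2%) had all mutant arrays above the wt arrays, against 12.1% of all genes. Without *dcap-1(rf)* replicate 2 the median of the 73 genes was 0.063, and without replicate 3 it was 0.060. A first principal component of the 73 genes carried 68.5% of their variance between arrays. These arrays share their worms, RNA and hybridization for every gene, so the 73 genes are not 73 replicates of the comparison.

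The remaining genes at the top of the scale did not show the shift. Among the 100 genes with the highest averages, the median log2 fold change of the 38 others was -0.037, and 13 of them (34.2%) were above 0. For the 62 ribosomal protein genes of the same 100 the median was 0.075, and 56 of them (90.3%) were above 0. On mutant replicates 1, 2 and 3 the medians relative to wt were -0.016, -0.024 and -0.057 for the 38 genes, where the 62 had 0.010, 0.10 and 0.097. The comparison was chosen after the data had been seen, was made with the deposited scaling only and carries no test. RMA gives all arrays the same distribution of probe signals, and 62 of these 100 genes are members. Higher values of the members can therefore go with lower values of the 38 others, and the sets are not independent. Within the family, genes with higher averages tended to have smaller log2 fold changes, with Spearman's rho of -0.29 and Pearson's r of -0.20 over the 73 genes, which share the same 6 arrays.

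**Figure D3:**
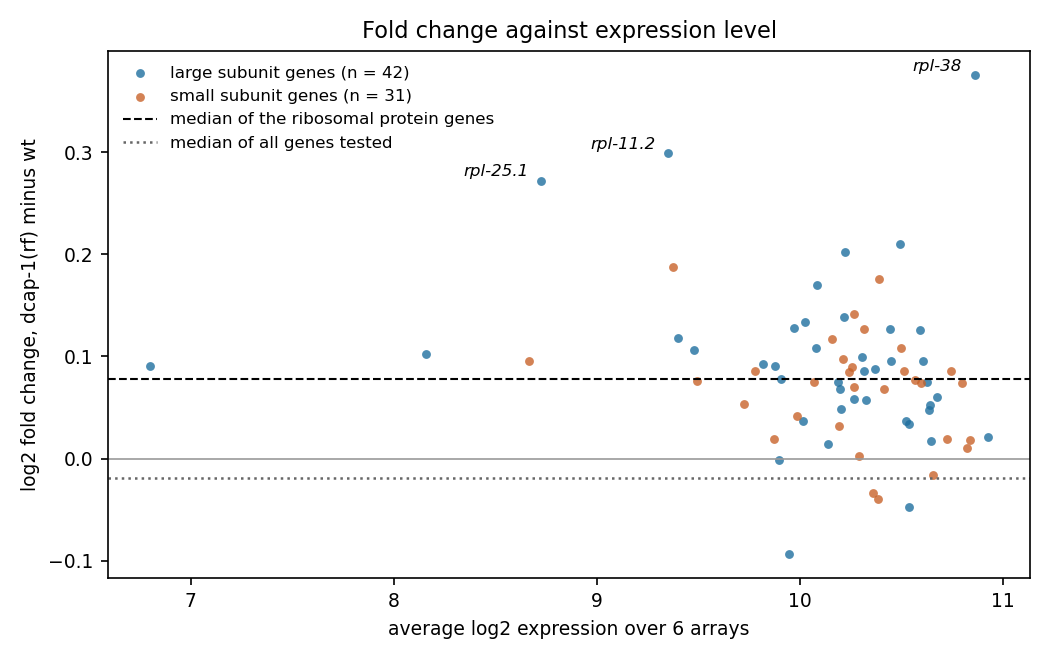
Log2 fold change (*dcap-1(rf)* minus wt, vertical axis) against the average log2 expression over 6 arrays (horizontal axis) for the 73 ribosomal protein genes, large subunit in blue and small subunit in orange. The dashed line is the median of the family (0.078) and the dotted line that of all genes tested (-0.019); *rpl-38*, *rpl-11.2* and *rpl-25.1* stand above the other genes.

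The subunits had similar shifts. The median log2 fold change was 0.089 over the 42 large subunit genes and 0.075 over the 31 small subunit genes, with quartiles of 0.050 and 0.12 for the large and 0.026 and 0.092 for the small subunit. Of the large subunit genes 39 (92.9%) were above 0, and of the small subunit genes 28 (90.3%). Relative to wt, the large subunit median was 0.028 on mutant replicate 1, 0.11 on replicate 2 and 0.12 on replicate 3, and the small subunit median was 0.0065, 0.11 and 0.087. The large minus the small subunit median was 0.021, -0.0019 and 0.037 on these arrays, and in wt it was 0.0037, -0.018 and 0.012. The mutant mean of this difference was 0.019 ± 0.020 (SD, n = 3) and the wt mean -0.00068 ± 0.015 (SD, n = 3). The groups overlapped, and the difference of 0.014 between the medians of the fitted log2 fold changes was -0.0096 without wt replicate 2.

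The log2 fold changes of the large subunit ran from -0.093 to 0.38 with an SD of 0.085 over genes, and those of the small subunit from -0.039 to 0.19 with an SD of 0.054. No test of this difference in spread was made. The highest small subunit value depended on the arrays used: the log2 fold change of *rps-7* was 0.27 when mutant replicate 1 was left out and 0.13 when mutant replicate 3 was.

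**Figure D4:**
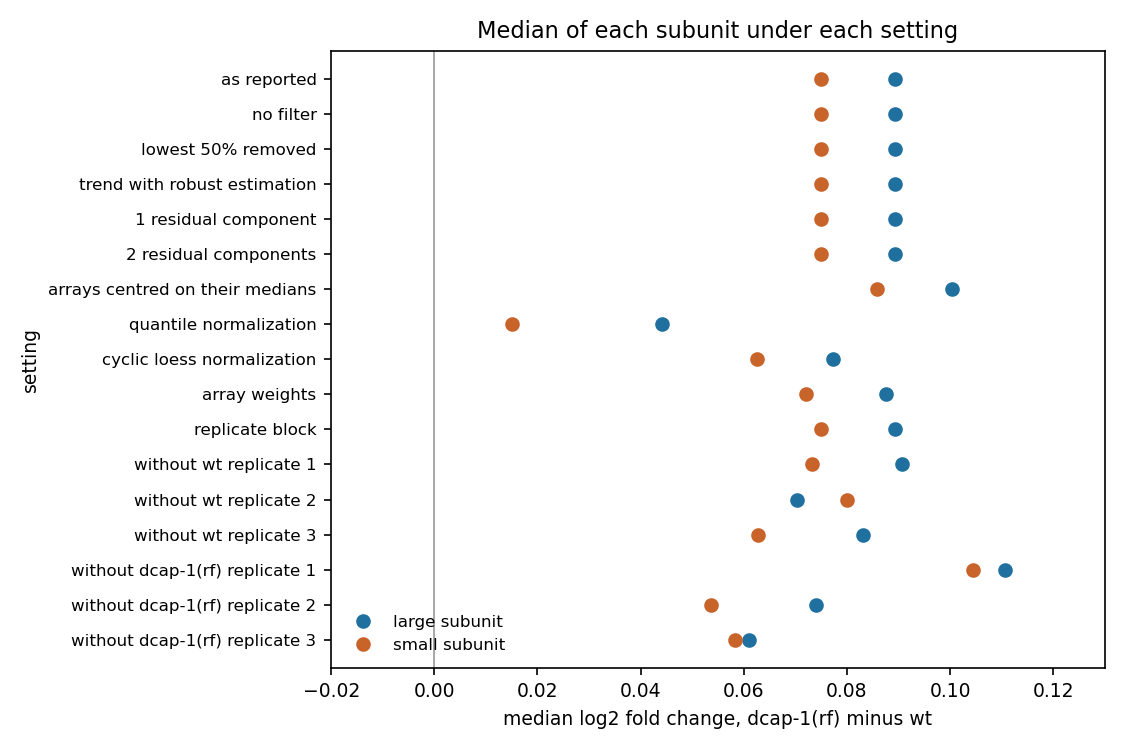
Median log2 fold change (*dcap-1(rf)* minus wt, horizontal axis) of the large (blue) and small (orange) subunit genes as reported and under each alternative setting (vertical axis). The medians stay above 0 in every setting shown, with the smallest after quantile normalization (0.044 for the large and 0.015 for the small subunit), and the order of the subunits turns without wt replicate 2.

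*rpl-38* (WBGene00004452, sequence name C06B8.8) had the largest log2 fold change of the family. It lies on chromosome V from 15512179 to 15512736 of WBcel235 and encodes a small protein of the large subunit, whose mouse counterpart is known for its part in the translation of Hox mRNAs. Its wt values were 10.75, 10.66 and 10.60 on the log2 scale, and its *dcap-1(rf)* values 11.07, 10.92 and 11.16, for replicates 1, 2 and 3 in turn. The lowest mutant array was above the highest wt array. *dcap-1(rf)* replicate 1, which was the lowest mutant array in most of the family, was here above replicate 2. The wt mean was 10.67 ± 0.07 and the mutant mean 11.05 ± 0.12 (SD, n = 3 each). This made a log2 fold change of 0.38 with a standard error of 0.088 and a 95% interval from 0.17 to 0.58. By its average it ranked 6 of 17397 genes, and on *dcap-1(rf)* replicate 1 it was the gene with the highest value of all. It was not called (unadjusted p = 0.00306, limma adjusted p = 0.104). It was called when the prior variance both followed the level and was fitted robustly (limma adjusted p = 0.0294), and over all 16 alternatives its limma adjusted p ran from 0.0294 to 0.298. When single arrays were left out, its log2 fold change stayed between 0.32 and 0.44.

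*rpl-11.2* (WBGene00004423, F07D10.1) had the next largest log2 fold change. It lies on chromosome X from 2241738 to 2242618 of WBcel235 and encodes the large subunit protein that enters the ribosome together with the 5S RNA, and that in mammals also binds the p53 regulator MDM2. Its log2 values were 9.19, 9.13 and 9.29 in wt and 9.41, 9.60 and 9.49 in *dcap-1(rf)*, for replicates 1, 2 and 3 in turn. The groups did not overlap. The log2 fold change was 0.30 with a standard error of 0.083 and a 95% interval from 0.11 to 0.49, and it was not called (limma adjusted p = 0.166).

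*rpl-25.1* (WBGene00004438, F55D10.2), which the RefSeq table names *rpl-23A.1*, was next. It lies on chromosome X from 4715178 to 4715800 of WBcel235. Proteins of this family sit at the mouth of the exit tunnel, where in yeast and bacteria chaperones and the signal recognition particle dock. Its log2 values were 8.51, 8.55 and 8.71 in wt and 8.78, 8.94 and 8.87 in *dcap-1(rf)*, for replicates 1, 2 and 3 in turn. Again no mutant array reached down to a wt array. The log2 fold change was 0.27 with a standard error of 0.085 and a 95% interval from 0.075 to 0.47, and it was not called (limma adjusted p = 0.216).

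*rpl-11.2* and *rpl-25.1* share 2 features that the choice of the genes did not use. Each is 1 of a pair of genes for the same protein, and both lie on the X chromosome. In the RefSeq table of WBcel235, 78 genes have a symbol that starts with rpl- or rps-, of which 23 lie on chromosome I, 11 on II, 18 on III, 17 on IV, 7 on V and 2 on X, and the 2 on X are these genes. The partners, *rpl-11.1* and *rpl-23A.2*, lie on chromosomes V and I. As background, the X chromosome of *C. elegans* is largely silent in mitotic and early meiotic germ cells, and a link to these values was not tested. The gene numbers of the partners are not paired with names here, so the partners were not compared. Signal shared between the copies of a pair was not separated either. Most other genes of the table have no chromosome paired with their number, so X-linked and autosomal genes were not compared over the array. *rpl-38*, *rpl-11.2* and *rpl-25.1* held the 3 highest log2 fold changes of the family in each of the 16 alternative settings, with *rpl-11.2* above *rpl-38* without wt replicate 3.

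**Figure D5:**
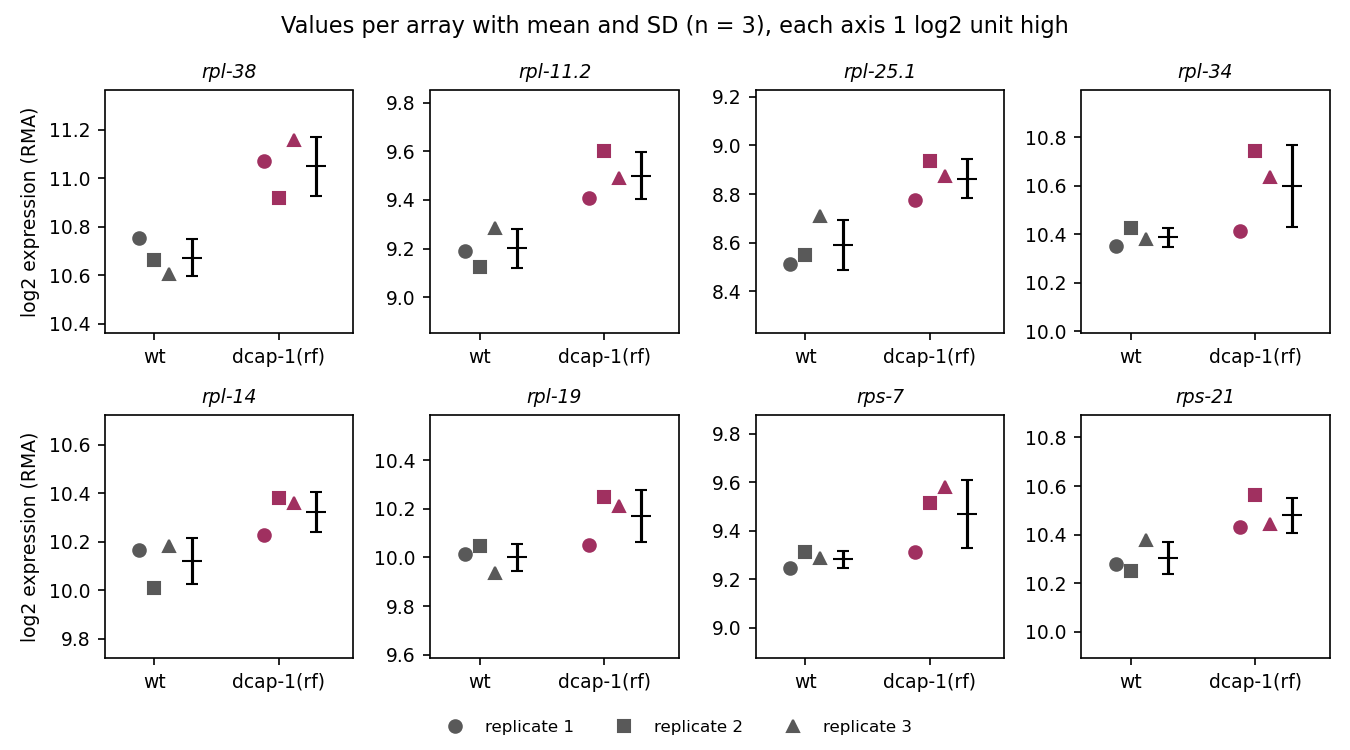
Log2 expression (vertical axis, each panel 1 log2 unit high) of the 8 ribosomal protein genes that the supplementary tables name, on 3 wt arrays (grey) and 3 *dcap-1(rf)* arrays (red), with the mean and SD of each group in black. The SD bars of the groups do not overlap in any of the 8 genes, with the widest gaps in *rpl-38*, *rpl-11.2* and *rpl-25.1*, and in *rpl-34* and *rps-7* replicate 1 of the mutant lies near the wt arrays while replicates 2 and 3 lie above them.

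The next genes in order followed the pattern of the family, with replicate 1 of the mutant near the wt arrays. *rpl-34* (chromosome IV, 12268995 to 12269533), a large subunit gene, had log2 values of 10.35, 10.43 and 10.38 in wt and 10.41, 10.74 and 10.64 in *dcap-1(rf)*. Its groups overlapped, since mutant replicate 1 was below wt replicate 2, and the difference of the means was 0.21 with a standard error of 0.097 (limma adjusted p = 0.394). *rpl-14* had 10.17, 10.01 and 10.18 in wt and 10.23, 10.38 and 10.36 in *dcap-1(rf)*, which made a log2 fold change of 0.20 with an unadjusted p of 0.0437 and a limma adjusted p of 0.344. Its groups were apart, by a gap between wt replicate 3 and mutant replicate 1 that was smaller than either SD. *rpl-19*, whose protein takes part in a bridge between the subunits, had 10.02, 10.05 and 9.94 in wt and 10.05, 10.25 and 10.21 in *dcap-1(rf)* and differed by 0.17 on the log2 scale (limma adjusted p = 0.412).

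Of the small subunit, *rps-7* and *rps-21* had the highest log2 fold changes. *rps-7* had log2 values of 9.25, 9.31 and 9.29 in wt and 9.31, 9.52 and 9.58 in *dcap-1(rf)*, which differ by 0.19 with a standard error of 0.088 (limma adjusted p = 0.402). *rps-21* (chromosome III, 7189178 to 7189631) had 10.28, 10.25 and 10.38 in wt and 10.43, 10.56 and 10.44 in *dcap-1(rf)*, which differ by 0.18 with a standard error of 0.076 (limma adjusted p = 0.366). In both genes the groups were apart, but by a gap smaller than either SD. This gap lay between mutant replicate 1 and wt replicate 2 in *rps-7*, and between mutant replicate 1 and wt replicate 3 in *rps-21*.

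Of the genes at the ends of the number ranges, 3 lay near the median of the family and *rpl-1* lay above its upper quartile. *rps-0* encodes a protein of the small subunit at the side where mRNA leaves, and had a log2 fold change of 0.085 with a 95% interval from -0.072 to 0.24. *rps-30*, whose protein is made as a fusion with a ubiquitin-like protein, had 0.075, with an interval from -0.10 to 0.25. *rpl-43*, a zinc-binding protein of the large subunit, had 0.078, with an interval from -0.087 to 0.24. *rpl-1* had 0.12, with log2 values of 9.41, 9.36 and 9.25 in wt and 9.36, 9.51 and 9.50 in *dcap-1(rf)*, so that mutant replicate 1 was below wt replicates 1 and 2. The log2 fold changes of *rpl-43* and *rps-30* were the medians of the family and of the small subunit.

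Among the unnamed genes, WBGene00004444 of the large subunit had the tightest wt values of its subunit, 10.15, 10.14 and 10.15, and 10.23, 10.32 and 10.31 in *dcap-1(rf)*. Its groups were apart and the difference of their means was 0.14 (limma adjusted p = 0.418). WBGene00004437, the gene with the lowest average of the family, had a log2 fold change of 0.09 at an average of 6.80, with a 95% interval from -0.097 to 0.28 that includes 0. The highest average of each subunit went with a small difference: the large subunit gene at 10.93 had a log2 fold change of 0.021 and the small subunit gene at 10.84 one of 0.019.

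In 6 genes, 3 of each subunit, the log2 fold change was below 0. The lowest was that of WBGene00004453, a large subunit gene with log2 values of 9.97, 10.05 and 9.97 in wt and 9.94, 9.86 and 9.90 in *dcap-1(rf)*. All its mutant arrays lay below its wt arrays, in contrast to the other 72 genes, and its log2 fold change was -0.093 with a 95% interval from -0.26 to 0.069. WBGene00004414 followed with -0.047, from 10.59, 10.55 and 10.54 in wt and 10.52, 10.56 and 10.47 in *dcap-1(rf)*, where the groups overlapped. The other 4 lay between -0.039 and 0.

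Genes that work with the ribosome could be followed in part only. Lists of further ribosomal proteins, translation factors, ribosome biogenesis genes and mitochondrial ribosomal proteins were matched by symbol to the named part of the supplementary tables. This gave 0, 9, 5 and 6 genes. All were higher in *dcap-1(rf)*, which the direction of that part of the tables fixed, and the counts say nothing about the direction of the lists. Their smallest log2 fold change was 0.15, and ribosomal protein genes at 0.14 and below had no name from that part. Genes with smaller positive changes thus dropped out too, and the sizes of change given here say nothing about the lists as a whole. Among them 1 was called, where 1.62% of all genes tested were. The source of the names also lists the differentially expressed genes, so called genes were more likely to have a name. The count therefore gives no share for the lists. The called gene was *pab-2*, which encodes a poly(A)-binding protein. Its log2 values were 6.37, 6.21 and 6.15 in wt and 7.20, 7.20 and 6.77 in *dcap-1(rf)*, a rise of 0.82 on the log2 scale with a standard error of 0.13 (limma adjusted p = 0.0274). *pab-1*, which encodes a related protein, had 7.93, 7.91 and 7.72 in wt and 8.07, 8.22 and 8.17 in *dcap-1(rf)*, with the groups apart and a limma adjusted p of 0.181. The 5 biogenesis genes had log2 fold changes between 0.17 and 0.24 and the 6 mitochondrial ribosomal protein genes between 0.16 and 0.30, none of them called. *nol-56*, which encodes a core protein of the box C/D particles that methylate ribosomal RNA, had log2 values of 7.67, 7.55 and 7.57 in wt and 7.72, 7.77 and 8.02 in *dcap-1(rf)*.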

How the data were processed

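The authors deposited log2 expression values, 1 for each gene on each array. They had run RMA with a BrainArray gene-level chip description on arrays that passed their quality control, and the submitters' processing notes name R 3.3.0. The methods name surrogate variable analysis, without saying whether the deposited values carry it. The values hold no counts or detection calls, so the number of arrays limits the precision.

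All 17397 genes were fitted on strain alone with limma 3.58.1 (R 4.3.3), the 25% of genes with the lowest averages were removed before the empirical Bayes step, as in the methods, and p-values of the remaining 13047 genes were adjusted by Benjamini-Hochberg, with a threshold of 0.05. All 73 ribosomal protein genes passed the filter. The fit was tested on simulated data with independent noise for each gene and changes larger than any in the family. That test says nothing about shifts as small as those reported here. Medians over the family and its subunits carry no p-value. The labels call the 3 arrays of a group biological replicates. The genes and lists were chosen with earlier results of these data known. Genes were to be named where they were called, were among the 5 highest or lowest of a subunit, belonged to a paralog pair, or had the highest or lowest average or the largest SD; since 61 have no name here, at most 2 numbers of unnamed genes are given in each direction, the genes at the ends of the number ranges are given because they have names, and *rpl-19*, WBGene00004444 and *pab-1* were singled out after their values were seen. Names came from the supplementary tables, which name 1994 genes, and positions from the RefSeq table of WBcel235. No protein or promoter sequences were used here. Alternatives were other filters, a prior variance that follows the level, residual components as covariates, 3 scalings, array weights, a block for the replicate number, and 1 array left out at a time. Summaries used pandas 2.3.3 under Python 3.11.15.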

Additional observations from a re-analysis of the deposited data

How the results depend on the processing

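The median log2 fold change of the 73 genes was above 0 in each of the 16 alternatives, between 0.030 and 0.089 with all arrays and between 0.060 and 0.11 with 1 array left out. The small subunit median was 0.015 after quantile normalization; the cause was not tested. With a robust prior variance that followed the level, 1 member was called, *rpl-38* (1.37%, against 2.05% of all genes), and 14 members had an unadjusted p under 0.05 (19.2%, against 14.1%). In the other 15 alternatives no member was called, where 0.644% to 3.15% of all genes were. With 1 array left out, members called numbered 0, against 0.644% to 2.35% of all genes. Those with an unadjusted p under 0.05 numbered 3 to 9 (4.11% to 12.3%), against 10.2% to 14.6% of all genes. Those with all mutant arrays above the wt arrays numbered 20 to 52 (27.4% to 71.2%), against 11.4% to 15.3% of all genes. The difference of the subunit medians lay between -0.0096 and 0.020 in these settings. With all arrays, the count of members with all mutant arrays above the wt arrays was 12 with the arrays centred on their medians. It was 10 after quantile normalization and 22 with cyclic loess normalization. The shares of all genes were 9.83%, 9.50% and 11.3% in that order. Of 256 comparisons of 16 single genes with an alternative, 255 kept direction and side of the threshold, *rpl-38* with that prior variance being the exception.

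The replicate numbers were not taken to pair the arrays, since the methods of the study name no block. The correlations of the deviations of same-numbered arrays were 0.055, 0.10 and 0.14 for numbers 1, 2 and 3. Each array correlated best with its own number, so these low values do not show that the arrays were unpaired. With the replicate number as a block, 0 members were called, against 1.89% of all genes. An unadjusted p under 0.05 was found for 3 members (4.11%), against 13.6% of all genes. The median of the 73 genes was 0.078, and the block changed no call among the members.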
